A study of Mus musculus with 6 samples.

Results

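The 10 genes described here are 3 Notch receptors (Notch1, Notch2 and Notch3), 3 of their ligands (Jag1, Jag2 and Dll1) and 4 transcription factors of the HES/HEY family (Hes1, Hes6, Hey1 and Heyl). They were found by symbol among the 54532 rows of the deposited table of gene counts, and each matched 1 row. The set was chosen by pathway after the Hes1 difference between these same libraries was known, so the members' differences are given as a description. No p-value is given for a member, and a call is named only to count it beside the share called over all genes or to show where it depends on 1 library. The question is whether the Hes1 difference comes with other Notch targets.

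RNA was sequenced from 6 libraries whose labels name NIT-1, a line grown from a mouse insulin-producing tumour and often taken to stand in for beta cells. In the group EV_Tm (n = 3) the cells had been given hucMSC-EVs, the vesicles shed by mesenchymal stem cells of human umbilical cord, for 16 h, and in PBS_Tm (n = 3; ERS in the titles) they had been given PBS for 16 h. Both groups then had 8 h of Tm, read here as tunicamycin, which blocks N-linked glycosylation and stresses the endoplasmic reticulum. Tm is thus shared by both groups, and 1 label field of the PBS_Tm libraries calls them not treated, against the design text. Nothing in the labels says whether the 3 libraries of a group were separate cultures, so all p-values below measure the spread between these libraries, which may be technical.

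Notch receptors sit in the membrane and are switched on by a ligand on a neighbouring cell. ADAM10 and then gamma-secretase cut the bound receptor, and the freed intracellular part joins the DNA-binding protein RBPJ and a Mastermind coactivator at target genes, of which HES and HEY genes are the best known. The HES and HEY proteins are repressors. In the developing pancreas Notch signalling and HES1 hold back Neurog3 and endocrine differentiation, and in the adult organ they are known from duct and centroacinar cells.

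The libraries held 28654248 to 32550268 counts each, so that 3 counts, the upper limit that a count of 0 allows, come to 0.0922 to 0.105 CPM (counts per 1000000 counts). That limit covers counting error only. The labelled cell type was not borne out by its markers. Of 14 beta-cell markers 8 were at 0 in all libraries, Ins2 and Pdx1 among them, 9 never exceeded 3 counts in a library, and the list summed to 0.133 to 0.597 CPM in PBS_Tm and 0.311 to 1.10 CPM in EV_Tm. Of 9 duct and acinar markers 5 were at 0, among them Krt19 and Cftr, and the sum of 2012 to 2100 CPM in PBS_Tm and 2924 to 3021 CPM in EV_Tm was nearly all Spp1. The sums were 22.3 to 25.2 CPM in PBS_Tm and 20.1 to 20.9 CPM in EV_Tm for 6 markers of other islet cells, nearly all Hhex. In the same order of groups they were 22.7 to 23.9 and 17.5 to 20.3 CPM for 9 mesenchymal markers, 31.6 to 34.1 and 29.1 to 30.8 CPM for 5 endothelial markers, and 2.82 to 4.72 and 4.72 to 6.66 CPM for 6 leukocyte markers. Most of the endothelial sum was Pecam1 (means 28.45 and 24.52 CPM), and Kdr and Emcn had no count. Mesenchymal markers went both ways, with Pdgfrb and Col1a1 lower in EV_Tm and Col3a1 higher. What part these differences have in the values below was not tested. In bulk RNA, fewer cells that express a gene and less RNA per cell cannot be told apart.

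Hes1 was 3.14-fold higher in EV_Tm, and the other HES and HEY members differed little or could not be measured well. Hes6 was 1.29-fold higher, Heyl was near the detection limit in both groups, and Hey1 had no count in any library. The receptors differed in direction: Notch1 was 2.60-fold lower, Notch2 1.18-fold higher, and Notch3 almost equal. Jag1, the most abundant of the ligand genes, was 1.09-fold higher. Outside the 10 members, the Notch target Dtx1 and the ligand gene Dll4 rose by 2.60-fold and 2.95-fold, and Rbpj fell.

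Of the 10 members 8 had enough counts to be fitted, and Hey1 and Dll1 did not. Of these 8, 5 were called, by an edgeR adjusted p under 0.05 over all genes, with Hes1, Hes6, Notch2 and Jag1 higher and Notch1 lower. Over all 16844 genes tested 47.4% were called, 22.6% higher and 24.7% lower. In the same 5 members the 3 values of one group did not overlap the 3 of the other, and over all genes tested this was so for 54.5%. Since the choice of the members used this comparison, nothing is read from their counts.

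**Figure D1:**
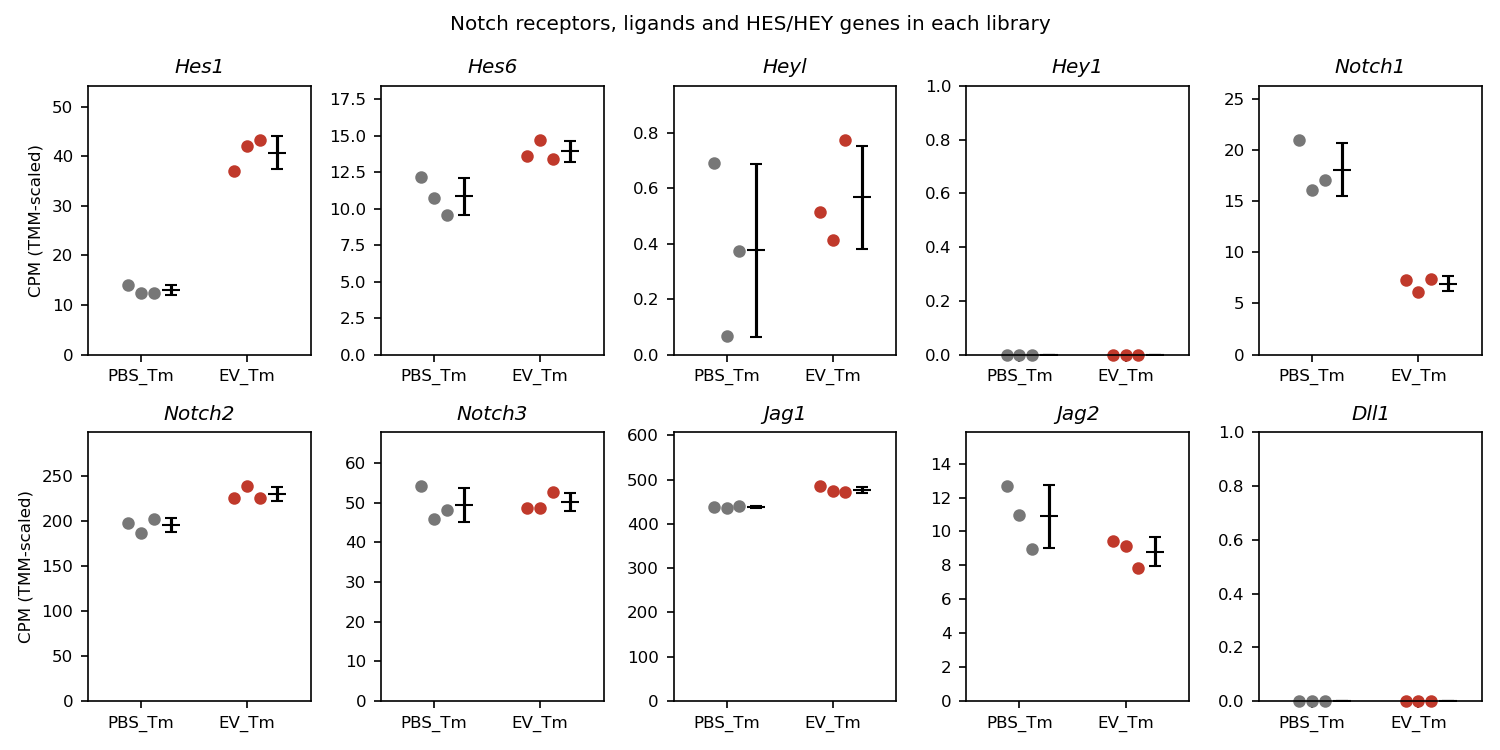
Each panel plots 1 member, with CPM scaled by TMM on the vertical axis, 1 point per library, and the mean with its SD beside the points (n = 3 per group). The Hes1 points of EV_Tm lie at 36.9 to 43.3 CPM against 12.4 to 14.1 in PBS_Tm, the Notch1 points lie the other way round, and Hey1 and Dll1 are at 0.

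Promoters of 5 genes that differed and of a HES/HEY gene without counts show what the sequences around these starts hold. They come from a RefSeq table on GRCm38.p6, in which 7 of the 10 members were matched, all but Hes1, Hey1 and Heyl. Windows of 300 bases, from 250 before the start to 50 after it, were searched on both strands for the RBPJ core TGGGAA, its longer form GTGGGAA, the N box CACNAG and the class C site CACGNG, both of the last bound by HES or HEY proteins. GTGGGAA contains TGGGAA, and CACGAG matches both of the last motifs. The share of all 32851 promoters that held each was 25.6% for TGGGAA, 6.38% for GTGGGAA, 42.5% for CACNAG and 27.5% for CACGNG. The 7 matched members had 9 promoters, of which 0 held TGGGAA, 5 CACNAG and 7 CACGNG. A match is only a match of letters, and a window without one says nothing of the factor.

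The first 280 bases are printed 5′ to 3′ on the gene's strand, ending 30 bases after the start, for 6 genes picked after their values and matches were known. In Notch1 (chr2:26503793-26504072, minus strand), the receptor that was lower, capitals mark 3 N boxes, of which the last 2 overlap at the start. That RefSeq start lies inside the deposited gene. In Dll4 (chr2:119325534-119325813, plus) and Dtx1 (chr5:120711640-120711919, minus), which rose, capitals mark the single N box, which in Dtx1 reads CACGAG on the opposite strand. In Hes6 (chr1:91414009-91414288, minus) they mark a class C site, at -157 to -152 counted from the start.
Notch1: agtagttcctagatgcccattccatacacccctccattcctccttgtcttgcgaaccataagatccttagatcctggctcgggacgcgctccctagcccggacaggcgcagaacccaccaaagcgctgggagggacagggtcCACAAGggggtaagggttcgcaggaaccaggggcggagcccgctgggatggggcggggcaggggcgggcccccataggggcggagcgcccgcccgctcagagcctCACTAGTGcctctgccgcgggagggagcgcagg
Dll4: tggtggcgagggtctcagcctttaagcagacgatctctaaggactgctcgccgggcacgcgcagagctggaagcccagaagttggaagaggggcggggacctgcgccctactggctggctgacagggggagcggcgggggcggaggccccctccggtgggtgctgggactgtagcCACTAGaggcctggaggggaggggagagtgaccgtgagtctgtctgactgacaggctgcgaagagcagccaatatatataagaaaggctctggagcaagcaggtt
Dtx1: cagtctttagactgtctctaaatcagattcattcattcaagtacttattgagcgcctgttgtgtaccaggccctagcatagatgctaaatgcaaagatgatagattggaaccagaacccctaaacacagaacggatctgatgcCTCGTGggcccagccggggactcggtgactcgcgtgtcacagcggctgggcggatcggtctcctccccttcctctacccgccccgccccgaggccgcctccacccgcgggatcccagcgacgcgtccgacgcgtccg
Hes6: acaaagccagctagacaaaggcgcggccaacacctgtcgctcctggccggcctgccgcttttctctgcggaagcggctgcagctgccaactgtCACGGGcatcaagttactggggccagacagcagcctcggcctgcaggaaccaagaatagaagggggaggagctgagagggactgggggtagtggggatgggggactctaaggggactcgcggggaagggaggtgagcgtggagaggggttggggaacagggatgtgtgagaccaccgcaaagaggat

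For contrast, Lfng (chr5:140607091-140607370, plus), which rose, and Hey2 (chr10:30842754-30843033, minus), which had no count, each held a pair of RBPJ cores. Capitals mark them, as TTCCCA where the core lies on the opposite strand. Both cores of Hey2 and the second of Lfng were of the longer form. The same motif thus stood in a promoter of a detected gene and in one of a gene at 0.
Lfng: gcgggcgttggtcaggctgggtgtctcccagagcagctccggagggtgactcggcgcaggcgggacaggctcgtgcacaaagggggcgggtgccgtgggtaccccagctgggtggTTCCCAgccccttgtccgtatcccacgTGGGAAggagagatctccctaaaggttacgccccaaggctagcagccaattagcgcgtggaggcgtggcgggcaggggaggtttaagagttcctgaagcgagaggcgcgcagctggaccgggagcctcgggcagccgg
Hey2: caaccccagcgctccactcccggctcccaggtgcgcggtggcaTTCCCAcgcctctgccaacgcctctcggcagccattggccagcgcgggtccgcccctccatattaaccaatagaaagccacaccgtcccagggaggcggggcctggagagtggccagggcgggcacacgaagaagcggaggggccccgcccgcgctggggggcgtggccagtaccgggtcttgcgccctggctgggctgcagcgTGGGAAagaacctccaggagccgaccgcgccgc

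Among the ligands Jag1 (ENSMUSG00000027276, chromosome 2, 137081456 to 137116644; positions of genes are on GRCm38) encodes Jagged1, a membrane ligand of all Notch receptors. Its level was 439, 436 and 440.2 CPM in PBS_Tm and 485, 474 and 472 CPM in EV_Tm. The groups did not overlap, yet the step was small against the level, means being 438 ± 2.20 and 477 ± 7.05 CPM (SD, n = 3 each) and the log2 fold change 0.12 ± 0.04 (SE). Without EV_Tm replicate 1 the log2 fold change was 0.11 and Jag1 was no longer called. Per gene length Jag1 made up 97.6% ± 0.265 of the transcripts of Jag1, Jag2, Dll1, Dll3 and Dll4 in PBS_Tm, and 97.5% ± 0.0533 for EV_Tm (SD, n = 3 each), so Jag1 was nearly all of the message of these 5 Jagged and Delta genes in both groups.

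Jag2 (ENSMUSG00000002799, chromosome 12, 112907819 to 112929776), the second Jagged ligand, was at 12.7, 11.0 and 8.99 CPM in PBS_Tm and 9.44, 9.14 and 7.82 CPM in EV_Tm. The groups overlapped, and the log2 fold change of -0.31 ± 0.13 (SE) was not called. It was called lower without PBS_Tm replicate 3 (-0.43) and without EV_Tm replicate 1 (-0.37), and the log2 fold change was only -0.19 without PBS_Tm replicate 1 and -0.23 without EV_Tm replicate 3. Dll1 (ENSMUSG00000014773, chromosome 17, 15367354 to 15376872), the Delta ligand of the developing pancreas, had 0 counts in all 6 libraries. An opposite-strand transcript, A930024N18Rik, shares 867 of its 4219 exon bases and was also at 0. How reads on such shared bases were counted is not stated, so over those bases the 0 is uncertain. No other annotated gene shares the rest of the Dll1 exon bases, which gave 0 counts too.

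Of 6 other ligand genes listed, 3 could be tested. Dll4, a Delta ligand best known from blood vessels, was at 0.629, 0.961 and 1.18 CPM in PBS_Tm and at 2.63, 2.38 and 3.17 CPM in EV_Tm. All EV_Tm values lay above all PBS_Tm values (log2 fold change 1.56 ± 0.29, SE, edgeR adjusted p = 7.21e-05), on 20 to 38 counts per PBS_Tm library. Per length Dll4 was still only 0.844% ± 0.129 of the transcripts of those 5 Jagged and Delta genes in EV_Tm (SD, n = 3), against 0.311% ± 0.0941 in PBS_Tm. Dlk2, a Delta-like protein that lacks the Notch-activating domain, fell from 3.77 ± 0.465 to 1.34 ± 0.0569 CPM (SD, n = 3 each; log2 fold change -1.49, edgeR adjusted p = 5.79e-06). Dner, an atypical ligand, rose from 117 ± 4.35 to 137 ± 5.36 CPM (SD, n = 3 each; edgeR adjusted p = 3.32e-04). Dll3, Dlk1 and Cntn1 had too few counts to test, with 40, 26 and 0 counts over the 6 libraries.

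Among the receptors Notch2 (ENSMUSG00000027878, chromosome 3, 98013527 to 98150361) had the most transcript. It was at 198, 187 and 202 CPM in PBS_Tm and 225, 239 and 226 CPM in EV_Tm. The groups did not overlap, with a log2 fold change of 0.23 ± 0.04 (SE). Notch3 (ENSMUSG00000038146, chromosome 17, 32120820 to 32166880), a receptor best known from vascular smooth muscle, was at 54.1, 45.8 and 48.0 CPM in PBS_Tm and 48.7, 48.7 and 52.6 CPM in EV_Tm. All EV_Tm values lay within the PBS_Tm range, the log2 fold change was 0.02 ± 0.07 (SE), and its sign changed when single libraries were left out.

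Notch1 (ENSMUSG00000026923, chromosome 2, 26457903 to 26516663), the receptor most studied in lymphocytes and in pancreatic progenitors, was the member that was lowest against PBS_Tm. It was at 21, 16.1 and 17.1 CPM in PBS_Tm and 7.29, 6.07 and 7.42 CPM in EV_Tm. The lowest PBS_Tm library had over 2 times the level of the highest EV_Tm library, and the log2 fold change was -1.38 ± 0.12 (SE). With any 1 library left out it was between -1.47 and -1.26. Opposite-strand transcripts share 1068 (0610009E02Rik) and 414 (Gm13568) of the 14232 exon bases of Notch1. Their own counts over the 6 libraries were 260 and 12, against 2344 for Notch1.

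Per length the receptor mix leaned further to Notch2. Notch2 took 70.3% ± 1.71 of the 4 receptors' transcripts in PBS_Tm and 75.1% ± 1.21 in EV_Tm, while Notch1 went from 4.90% ± 0.523 to 1.72% ± 0.214 (SD, n = 3 each). Notch3 held 23.7% ± 1.23 and 21.9% ± 1.10. These shares divide by the deposited gene length, which for Notch1 (14232 bases) covers all its annotated exons. If the transcripts present were shorter, the share of Notch1 is understated in both groups. The 4 receptors together came to 25.8 ± 1.26 RPKM (CPM per kilobase of gene) in PBS_Tm (SD, n = 3). In EV_Tm they came to 28.4 ± 0.607 RPKM (SD, n = 3). Notch1 was a small part of that sum, with means of 1.27 RPKM in PBS_Tm and 0.487 RPKM in EV_Tm. Notch2, the largest part, was higher in EV_Tm, at 21.3 RPKM against 18.1 (means). Notch4, an endothelial receptor, was at 2.20, 1.72 and 2.55 CPM in PBS_Tm and 2.79, 3.14 and 2.76 CPM in EV_Tm. The groups did not overlap, but the log2 fold change of 0.42 ± 0.22 (SE) did not pass (edgeR adjusted p = 0.130), and it was 0.28 without PBS_Tm replicate 2.

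Sugars on the receptor set which ligand it answers. Of 9 genes for these sugars 2 rose, Gxylt2 fell and 6 did not pass. Their median log2 fold change was 0.05, and that over all genes tested was 0.01. Lfng, the Fringe enzyme whose sugar favours Delta over Jagged ligands, was at 4.21, 3.21 and 3.42 CPM in PBS_Tm and 5.68, 6.45 and 5.65 CPM in EV_Tm (log2 fold change 0.71 ± 0.17, SE, edgeR adjusted p = 9.27e-04). The other Fringe genes Mfng and Rfng did not pass. Mfng stood at 20.5 ± 2.30 CPM and then 22.8 ± 1.94, and Rfng at 23.2 ± 2.23 and then 22.9 ± 1.20 (SD, n = 3; PBS_Tm first). Gxylt1 rose from 54.5 ± 1.41 to 67.2 ± 1.25 CPM and Gxylt2 fell from 723 ± 22.5 to 647.5 ± 25.4 CPM (SD, n = 3 each; edgeR adjusted p = 4.60e-05 and 0.00114). Both add xylose to the receptor.

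Of 10 genes that cut the receptor 5 rose, 2 fell and 3 did not pass (median log2 fold change 0.13). Furin, which cuts the receptor on its way to the surface, rose 1.48-fold, from 92.3 ± 0.468 to 137 ± 4.34 CPM (SD, n = 3 each; edgeR adjusted p = 1.42e-10). Adam10, the protease of the activating cut, rose 1.26-fold, from 110.0 ± 5.89 to 138 ± 0.515 CPM (SD, n = 3 each; edgeR adjusted p = 2.28e-06). Aph1a, a subunit of gamma-secretase, rose from 64.4 ± 2.27 to 74.8 ± 5.37 CPM (SD, n = 3 each; edgeR adjusted p = 0.00303). Aph1a shares 445 of its 3450 exon bases with the opposite-strand gene Car14.

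Of 15 genes for endocytosis and ubiquitin ligases, 4 rose, 7 fell and 4 did not pass (median log2 fold change -0.12). Mib2, a ligase that lets ligands pull on receptors, fell 1.53-fold, from 75.3 ± 8.30 to 49.2 ± 3.60 CPM (SD, n = 3 each; edgeR adjusted p = 6.26e-08). The ligase genes Neurl1a and Neurl1b went the other way, rising 1.18-fold and 1.30-fold (edgeR adjusted p = 0.00179 and 4.29e-06). Itch, a ligase that directs Notch to breakdown, fell 1.40-fold (edgeR adjusted p = 2.59e-09) and Numbl, a relative of the Notch inhibitor Numb, 1.42-fold (edgeR adjusted p = 6.50e-07). Epn1, an endocytic adaptor used by ligands, rose 1.38-fold (edgeR adjusted p = 2.66e-08). Numb itself did not pass, with 36.5 ± 2.16 CPM for PBS_Tm and 34.8 ± 1.94 for EV_Tm (SD, n = 3).

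**Figure D2:**
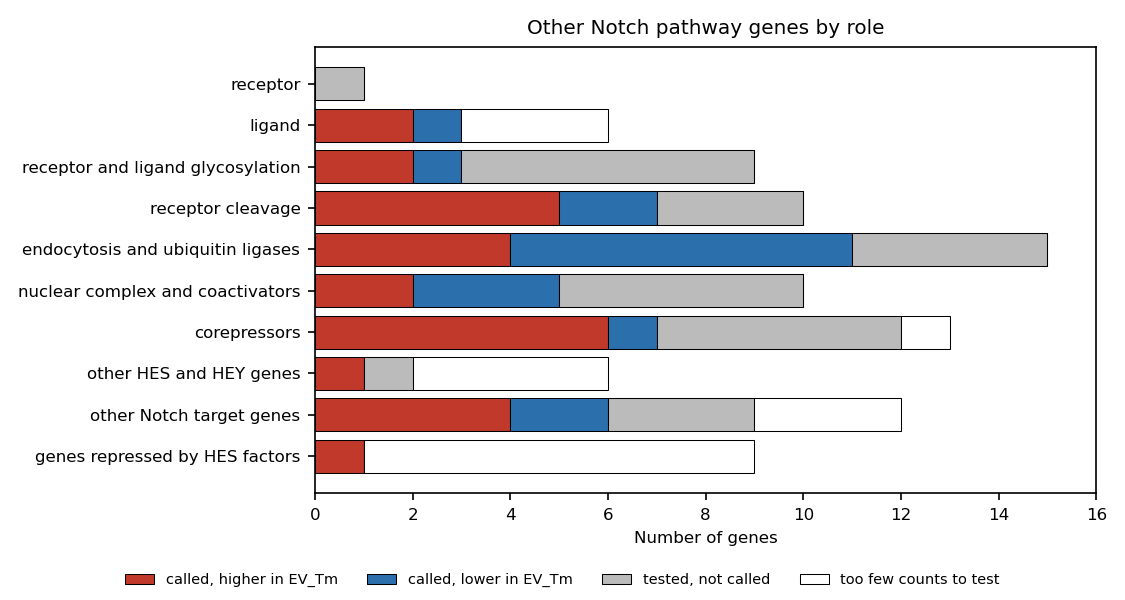
Bars count the listed Notch pathway genes outside the 10 members by role, with the number of genes on the horizontal axis and colours for called higher, called lower, tested but not called, and too few counts to test. Called genes of both directions stand in 7 of the 10 roles, and 8 of the 9 genes repressed by HES factors had too few counts to test.

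In the nucleus the DNA-binding partner of the cut receptor was lower. Rbpj was at 277, 277 and 300.4 CPM in PBS_Tm and 231, 224 and 220.0 CPM in EV_Tm (log2 fold change -0.34 ± 0.04, SE, edgeR adjusted p = 3.04e-07), with no overlap. Rbpj has a processed pseudogene, Rbpj-ps3, and the split of reads between the copies was not tested and is uncertain. The Mastermind coactivator genes Maml1 and Maml3 rose 1.24-fold and 1.34-fold (edgeR adjusted p = 1.08e-04 and 1.70e-04), and Maml2 did not pass. Crebbp, an acetyltransferase coactivator, fell 1.14-fold (edgeR adjusted p = 0.00297). Of the 10 genes of this role 2 rose, 3 fell and 5 did not pass (median log2 fold change -0.11).

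Of 13 corepressor genes 12 were tested, of which 6 rose, Tle1 fell and 5 did not pass (median log2 fold change 0.20). The Groucho-type corepressors, which HES proteins recruit, moved apart. Tle2 rose from 44.9, 38.0 and 43.5 CPM in PBS_Tm to 104, 99.3 and 106 CPM in EV_Tm (log2 fold change 1.29 ± 0.06, SE, edgeR adjusted p = 4.31e-15). Tle1 fell from 69.3, 70.6 and 71.5 CPM to 35.8, 42.0 and 42.1 CPM (-0.82 ± 0.06, SE, edgeR adjusted p = 8.29e-11). In both genes the groups lay far apart. Tle3 did not pass and Tle4 had no count. Aes, a short relative of the Groucho family, rose 1.44-fold and Sin3a, a scaffold of histone deacetylases, 1.25-fold (edgeR adjusted p = 4.54e-09 and 1.64e-06).

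Among the target genes Hes1 (ENSMUSG00000022528, chromosome 16, 30064384 to 30067796), the repressor for which the set was chosen, was at 14.1, 12.4 and 12.4 CPM in PBS_Tm and 36.9, 42.0 and 43.3 CPM in EV_Tm. The lowest EV_Tm library stood well above the highest PBS_Tm library. The means were 12.9 ± 1.01 and 40.7 ± 3.38 CPM (SD, n = 3 each), on 373 to 449 counts per PBS_Tm library and 1149 to 1395 per EV_Tm library. The log2 fold change was 1.65 ± 0.09 (SE), and between 1.61 and 1.72 with any 1 library left out. No annotated exon of another gene overlaps those of Hes1.

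Hes6 (ENSMUSG00000067071, chromosome 1, 91411483 to 91414038), a family member that opposes HES1, was at 12.2, 10.7 and 9.58 CPM in PBS_Tm and 13.6, 14.7 and 13.4 CPM in EV_Tm. The groups did not overlap, but the gap between the nearest libraries was small. The log2 fold change was 0.36 ± 0.11 (SE). Without PBS_Tm replicate 3 it was 0.28 and Hes6 was no longer called.

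Heyl (ENSMUSG00000032744, chromosome 4, 123233556 to 123249875), a HEY gene known as a Notch target, had 22, 2 and 12 counts in PBS_Tm and 16, 12 and 25 counts in EV_Tm. The groups overlapped, and the log2 fold change of 0.58 ± 0.57 (SE) was as large as its error. It was 1.34 without PBS_Tm replicate 1, 0.09 without PBS_Tm replicate 2 and 0.29 without EV_Tm replicate 3. Hey1 (ENSMUSG00000040289, chromosome 3, 8663359 to 8667256), a repressor widely used as a readout of Notch signalling, had 0 counts in all 6 libraries, or at most 0.105 CPM in a library. The 2 HEY genes of the set were thus scarce or not detected in both groups, and no fold change can be given for Hey1.

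Of 6 other HES and HEY genes only Hes7 and Helt could be tested. Hes7, the oscillating repressor of the somite clock, had 16 to 40 counts per library and did not pass (log2 fold change -0.39 ± 0.41, SE, edgeR adjusted p = 0.466). With single libraries left out its value ran from -0.70 to -0.12. Helt, a related repressor of the brain, had 2, 2 and 3 counts in PBS_Tm and 13, 10 and 11 counts in EV_Tm. It is counted as called higher, but it passed the filter on low counts through its EV_Tm libraries alone, so no fold is given and nothing is read from the call. Hey2 had 0 counts, and Hes5, a classic Notch target of the nervous system, had 1 count over all libraries.

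Dtx1, a ubiquitin ligase gene induced by Notch in lymphocytes, was at 3.68, 4.14 and 4.32 CPM in PBS_Tm and 11.6, 10.2 and 9.87 CPM in EV_Tm. Every EV_Tm library was more than 2 times every PBS_Tm library (log2 fold change 1.38 ± 0.14, SE, edgeR adjusted p = 6.99e-09). It was called with any 1 library left out, at log2 fold changes of 1.30 to 1.43. Nrarp, a feedback inhibitor that Notch induces in many tissues, had 0 counts. An antisense transcript, Gm38287, shares 2051 of its 2582 exon bases and was at 0 too, so over most of its exon bases the 0 of Nrarp is uncertain.

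The targets that other pathways also drive went both ways. Ccnd1, the cyclin of cell cycle entry, rose from 534 ± 6.81 to 832 ± 10.3 CPM (SD, n = 3 each; edgeR adjusted p = 8.71e-14). Sox9, a duct and progenitor factor, rose from 62.4 ± 1 to 80.7 ± 1.52 CPM (SD, n = 3 each; edgeR adjusted p = 1.16e-06). Cd44, the hyaluronan receptor gene, rose from 311 ± 16.1 to 402 ± 4.71 CPM (SD, n = 3 each; edgeR adjusted p = 4.30e-08). Spp1, the most abundant of the 9 duct and acinar markers, was higher in EV_Tm as well, at 2954 CPM against 2020.0 (means). Only 2 of the 9 could be tested, Spp1 and Cela1, and both were higher. Krt19 and Cftr had no count, and Krt7 and Epcam had too few to test, so the list does not show a change in duct cells. The part of Spp1 was not tested. The cell cycle inhibitor gene Cdkn1a and the survival gene Bcl2 fell by 0.23 and 0.30 on the log2 scale (edgeR adjusted p = 2.85e-05 and 6.23e-04), and these 2 were named because they are the members of this list that fell. Myc, Nfkb2 and Gata3 did not pass, with log2 fold changes of -0.01, 0.00 and -0.56. Of the 12 other target genes 9 were tested, 4 rising, 2 falling and 3 not passing (median log2 fold change 0.00).

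Of 9 genes that HES factors repress, Neurog3, Neurod1, Neurog1, Neurog2 and Atoh1 had no count in any library, so that no change in these bHLH genes could be seen in either direction. Cdkn1b, a cell cycle inhibitor that HES1 is known to repress, rose from 185 ± 10.04 to 246 ± 8.16 CPM (SD, n = 3 each; edgeR adjusted p = 3.30e-08). It was the only gene of this role with enough counts to test.

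**Figure D3:**
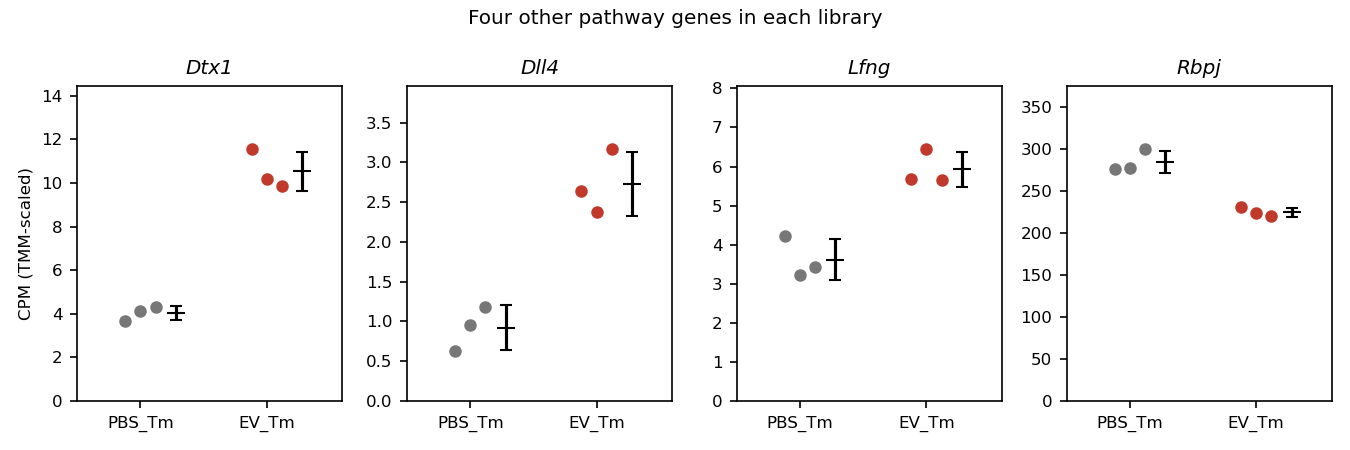
Panels plot the CPM scaled by TMM of Dtx1, Dll4, Lfng and Rbpj, 1 point per library, with the mean and SD beside them (n = 3 per group). All EV_Tm points of Dtx1, Dll4 and Lfng lie above all PBS_Tm points, and those of Rbpj lie below, at 220.0 to 231 CPM against 277 to 300.4.

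Over the whole list of 91 pathway genes outside the members, 72 were tested and 44 of these called, 27 higher and 17 lower, which is 61.1% against 47.4% of all genes tested. The values of the groups stood apart in 47 of the 72, against 54.5% of all genes tested. The median log2 fold change of the list was 0.05, against 0.01 over all genes tested. Helt aside, called genes past 1 on the log2 scale were Hes1, Dll4, Dtx1 and Tle2 upwards and Dlk2 and Notch1 downwards. Over all genes tested, 1223 (7.26%) differed by at least 1 on the log2 scale in either direction, called or not. The list was chosen with earlier results of these data known, so its shares are a description, and nothing is read from them.

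**Figure D4:**
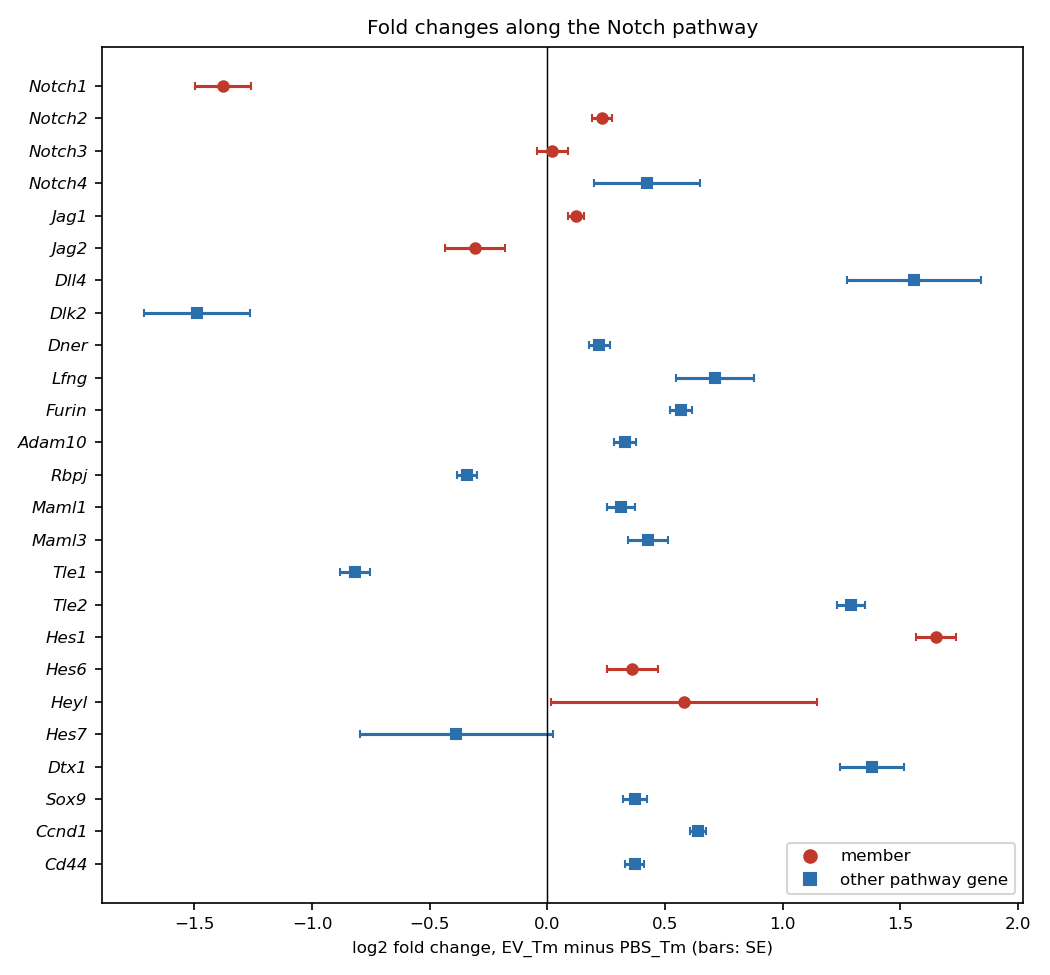
The horizontal axis is the log2 fold change, EV_Tm minus PBS_Tm, with bars for its SE, for the 8 fitted members (red circles) and 17 other pathway genes (blue squares) in pathway order. Hes1 (1.65), Dll4, Dtx1 and Tle2 lie above 1, Dlk2 and Notch1 (-1.38) lie below -1, and the other points lie between.

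Set per gene length, the order of the members in PBS_Tm was Jag1 (75.2 ± 0.378 RPKM), Notch2 (18.1 ± 0.715), Hes1 (6.36 ± 0.495), Notch3 (6.13 ± 0.537), Hes6 (5.99 ± 0.716), Jag2 (1.56 ± 0.265), Notch1 (1.27 ± 0.183) and Heyl (0.0737 ± 0.0612), with SD and n = 3. Hes1, Notch3 and Hes6 did not differ beyond their spread, and neither did Jag2 and Notch1. In EV_Tm the order was Jag1 (81.9 ± 1.21 RPKM), Notch2 (21.3 ± 0.704), Hes1 (19.99 ± 1.66), Hes6 (7.70 ± 0.391), Notch3 (6.22 ± 0.282), Jag2 (1.26 ± 0.124), Notch1 (0.487 ± 0.0524) and Heyl (0.111 ± 0.0366). There the range of Hes1 (18.1 to 21.3 RPKM) met that of Notch2 (20.9 to 22.1 RPKM) through 1 Hes1 library, and Jag2 and Notch1 no longer overlapped. The order rests on the deposited lengths, so the limit given for Notch1 holds here too. These are transcript levels, and they do not show how much receptor was cut.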

How the data were processed

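Reads had been aligned with HISAT2 2.2.1 after adaptor removal, per the labels' protocols, and featureCounts 2.0.6 and the build mm39 are named per the submitters' processing notes. The authors deposited 1 raw count per gene and library, without normalization. The deposited gene start, end and length are other values, in bases, and 98.33% of 54409 shared gene IDs have the coordinates of GENCODE M21, so positions are read as GRCm38 (Notch3 differs slightly). How strand, multi-position reads and reads shared by overlapping genes were handled is not stated.

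The groups were compared with edgeR 4.0.16 in R 4.3.3 (TMM scaling, filterByExpr, two-sided quasi-likelihood test), and p-values were adjusted by Benjamini-Hochberg over 16844 genes and called under 0.05. CPM uses TMM-scaled library sizes, except in the limit of 3 counts, and RPKM divides it by the deposited length. SE is the size of the log2 fold change over the square root of F.

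The members and lists were chosen with earlier results of these data known. The p-values and called shares of the listed genes are therefore not independent evidence on the pathway. Named are all members, 9 pathway genes whatever their values (Rbpj, Notch4, Dll3, Dll4, Nrarp, Dtx1, Hes5, Hes7, Hey2), and per role up to 4 called genes with non-overlapping groups by smallest p. Others were named after their values were seen, and some results are not reported here. The fit was run on simulated data in which far fewer genes differed than were called here. That run therefore does not show the error rates for these data. Libraries of a group differed by more than sampling noise (mean chi-square per gene 3.71 to 7.78). Alternatives were scaling by DESeq2 size factors or by library size alone, testing with no filter or with one of 1 CPM in 3 libraries, DESeq2 1.42.0, limma-voom (limma 3.58.1), the replicate block and leaving out each library.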

Additional observations from a re-analysis of the deposited data

How the results depend on the processing

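The count of called genes on the pathway list ran from 41 to 45 over the alternatives. Of 30 other pathway genes that were named by the rule above and fitted, all 30 kept their direction and their side of the threshold in every one of the 13 alternatives in which they were fitted, and of 8 members 4 did. Most of the 30 were named for their small p, which favours this, so nothing is read from it. Genes named after their values were seen, such as Cdkn1a and Bcl2, were not followed over the alternatives. The members called lower numbered 1, and 2 with no filter, 2 with the replicate block, and 1 to 2 with single libraries left out, where the added gene was Jag2 each time. Hes6 and Jag1 each lost their call without 1 library, as given above. Notch3, which was not called, had a log2 fold change from -0.04 to 0.09 with single libraries left out, negative at -0.04, -0.003 and -0.018. The label numbers did not pair the libraries (correlations of same-numbered deviations from -0.043 to 0.016), and with the replicate block 7737 genes were called in place of 7976, and 43 of the other pathway genes in place of 44. Scaling by library size alone shifted log2 fold changes by 0.04. In every library 2 counts were more common than 1 (1710 to 1834 genes against 1069 to 1171), so low counts may not be independent reads, and limits on counts of 0 cover counting error only. Heyl, Hes7, Helt and Dll4 are limited by depth.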
